A study of Mus musculus with 16 samples.

Results

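The comparison concerns 2 short isoforms of the chromatin protein MBD3, whose methyl-CpG-binding domain is incomplete, set against full-length MBD3. Its members are 8 of the 16 arrays of the series: 4 from the lines that carry MBD3b or MBD3c, and 4 from the line that carries MBD3a and from the parental line EBRTcH3. They were chosen by the line and culture condition in the sample titles, so no measured value entered the choice. EBRTcH3 is a mouse embryonic stem cell line of 129SV strain, labelled male, with its own Mbd3 gene intact. The MBD3b, MBD3c and MBD3a lines share a background in which all 3 isoforms had been knocked out of EBRTcH3, and each carries a stably introduced vector for the isoform in its name. Every line was grown with LIF (leukaemia inhibitory factor, a cytokine that keeps these cells self-renewing) and again through 12 days of withdrawal to induce differentiation. Total RNA from each of these cultures was hybridised to 1 Affymetrix array, so each line has a single array per condition. The labels do not say whether a line is 1 clone or which promoter drives the vector, and no line has a repeat culture. The 4 other lines of the series (empty vector, MBD-deleted, coiled-coil-deleted and doubly deleted MBD3a) enter only as values side by side.

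MBD3 is a core subunit of NuRD, a complex that joins nucleosome remodelling by CHD proteins to histone deacetylation by HDAC1 and HDAC2. The complex is best known in embryonic stem cells for tuning down pluripotency genes so that cells can leave self-renewal, and for restraining trophectoderm genes. The isoforms arise from 1 gene and differ at the amino-terminal end of the protein, where the methyl-CpG-binding domain lies. MBD3 in mammals, unlike its paralogue MBD2, binds methylated CpG poorly.

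The Mbd3 signal checked the labels. It was 9.15 in MBD3b and 8.65 in MBD3c with LIF, against 9.09 in MBD3a and 9.10 in EBRTcH3 (log2 signal throughout). Without LIF it was 9.59 in MBD3b and 8.57 in MBD3c, against 8.96 in MBD3a and 9.17 in EBRTcH3. The empty-vector line gave 7.00 and 7.45. Among the 4 compared lines MBD3b had the highest Mbd3 signal and MBD3c the lowest in both conditions, and the isoform lines lay on either side of the comparison lines (difference over both conditions -0.09 ± 0.20, SE, limma adjusted p = 0.863). The gene-level signal does not separate the isoforms.

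One property of the lines goes against the labels. The Y-linked gene Uty gave 9.27 and 8.24 in EBRTcH3 with and without LIF, but no more than 5.70 in any array of the other 7 lines. Eif2s3y, also Y-linked, gave 9.48 and 8.78 in EBRTcH3 and at most 6.71 elsewhere. The Y-linked Kdm5d showed no such gap, with 3.51 and 3.55 in EBRTcH3 and 3.50 to 3.81 elsewhere. Its signal was below the array medians of 4.72 to 4.85 on every array, EBRTcH3 included, so it says little on this point. The median of protein-coding genes of chromosome 8 lay 0.21 above EBRTcH3 with LIF in MBD3b, in MBD3c and in MBD3a alike, and that of chromosome 14 lay 0.17, 0.16 and 0.15 above it. In the 4 other lines chromosome 8 lay 0.18 to 0.22 above EBRTcH3 with LIF, while chromosome 14 lay 0.16 above it in the MBD-deleted line and 0.06 in the other 3. Chromosome 8, Uty and Eif2s3y thus set EBRTcH3 apart from the 7 other lines with LIF, and chromosome 14 less evenly. The chromosome 15 median lay below EBRTcH3 in all 7, by 0.11 to 0.14 without LIF and by 0.01 to 0.08 with LIF. Measured against MBD3a instead, the isoform lines showed chromosome medians within 0.01 of zero on chromosomes 8 and 14 with LIF. A gene therefore had to differ from MBD3a as well as from EBRTcH3 to be described here as shared. This rule did not even out the chromosomes. On chromosome 8, 3.53% of protein-coding genes were shared higher and 2.19% lower, and on chromosome 14, 5.23% and 4.74%. On chromosome 15 the shares were 0.799% and 14.5%. Of all tested protein-coding genes 2.03% were shared higher and 11.6% lower. All 10 embryonic stem cell markers were measured. Their mean signal ranged from 11.30 to 11.34 in the isoform lines with LIF and from 11.47 to 11.55 in the comparison lines; without LIF the ranges were 10.91 to 11.12 and 10.80 to 10.99. Fibroblast feeder markers averaged 4.97 to 4.99 in the isoform lines with LIF and 5.05 to 5.16 in the comparison lines, and 5.63 to 5.66 and 5.71 to 5.93 without LIF. The part of these markers, of the Y-linked genes and of chromosomes 8, 14 and 15 in the results was not tested.

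With LIF, MBD3b and MBD3c resembled each other more than they resembled either comparison line. Over all probe sets the correlation between their arrays was 0.995, and that between MBD3a and EBRTcH3 was 0.994. The 4 correlations across the divide were lower, at 0.988 to 0.990. Without LIF this separation was absent: MBD3b correlated with MBD3a at 0.9941 and with MBD3c at 0.9937. The standard deviation of the gene-by-gene difference gave another order. With LIF it was 0.200 between MBD3b and MBD3c, 0.251 and 0.245 between them and MBD3a, 0.294 and 0.287 between them and EBRTcH3, and 0.257 between MBD3a and EBRTcH3. By this measure MBD3a lay slightly nearer the isoform lines than EBRTcH3. Without LIF it was 0.232 between MBD3b and MBD3c, against 0.224 to 0.318 between an isoform line and a comparison line. MBD3b and MBD3c differed by at least 1 log2 unit in 41 genes with LIF and in 52 without.

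Over both conditions, no gene passed the test at an adjusted p of 0.05. limma was fitted to 22684 genes with the culture condition as a block and the line as a random block, since the 2 arrays of a line share that line, and 0 genes (0.0%) passed. The smallest adjusted p was 0.174. At an unadjusted p under 0.05 there were 740 genes higher and 2498 lower in the isoform lines, and a fit without the random block also called 0 genes. Leaving out MBD3a, so that EBRTcH3 alone stood for the comparison, gave 1344 genes, whereas leaving out EBRTcH3 gave 0. p-values here measure the spread between these single cultures only.

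Shared genes were then described without a test. A gene counted as shared where both isoform lines lay on the same side of both comparison lines with LIF and again without it. There were 512 such genes higher (2.26% of those tested) and 2111 lower (9.31%) in the isoform lines, and none in which the smallest of the 8 pairwise differences reached 0.5 log2 units. The excess of lower genes depended on the scale. On the deposited scale 80.5% of shared genes were lower, but after a further quantile normalisation of the 8 arrays the share was 55.0%, and after centring each array on its protein-coding genes it was 27.2%. The median difference over all tested genes with LIF was -0.07 on the deposited scale, -0.01 after quantile normalisation and 0.04 after centring. The 30 shared genes named next kept their side under all 3 scalings. They were chosen for the widest gaps on the deposited scale, so this says little about the other shared genes.

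**Figure D1:**
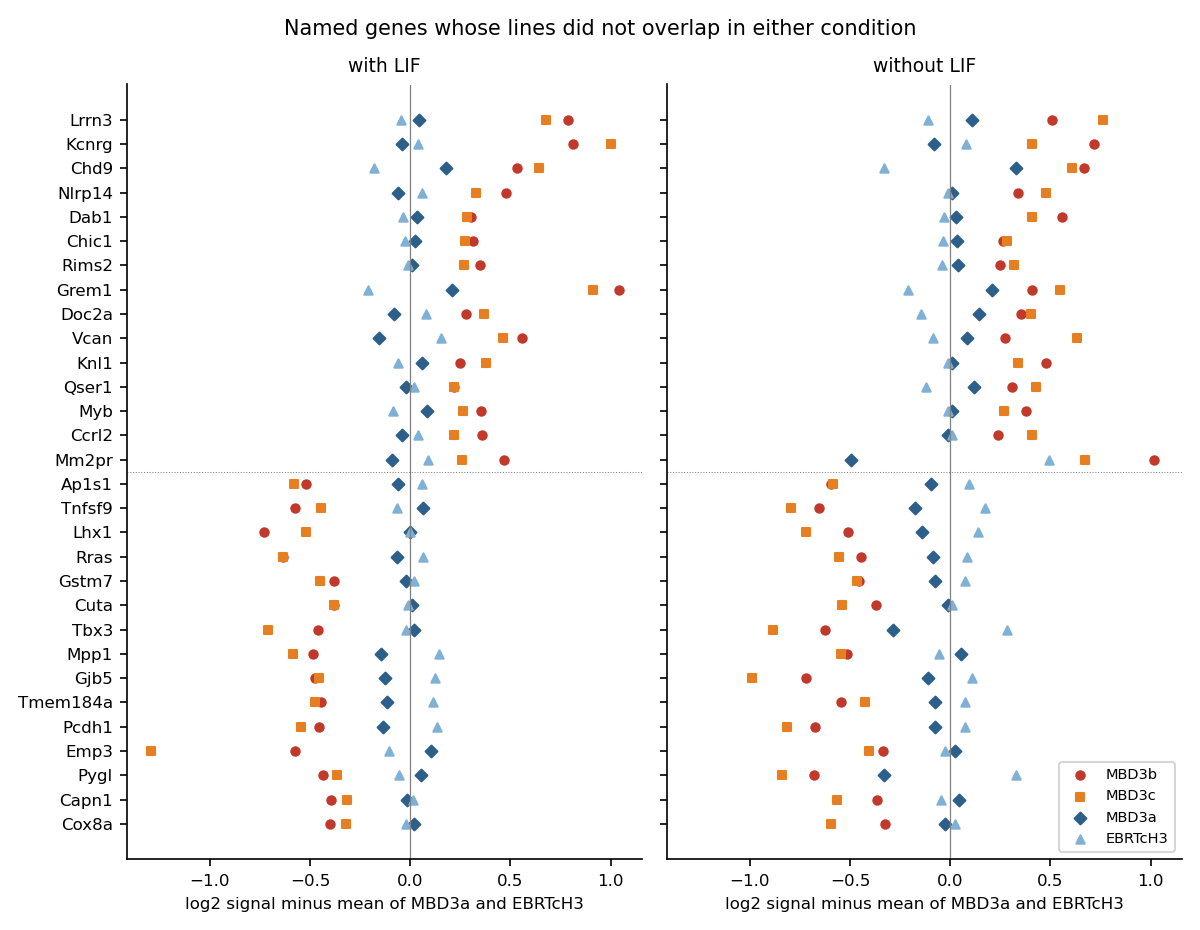
Log2 signal of the 30 named shared genes in MBD3b, MBD3c, MBD3a and EBRTcH3 (1 array per line and condition), each minus the mean of MBD3a and EBRTcH3 in that condition, with LIF on the left and without LIF on the right. Above the dotted line both isoform lines lie to the right of both comparison lines, below it to the left, and none of these genes passed the test over both conditions.

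Among the shared genes that were higher, the widest gap was that of Lrrn3, which encodes a leucine-rich repeat membrane protein of neurons. Its signal with LIF was 5.24 in MBD3b and 5.13 in MBD3c, against 4.50 in MBD3a and 4.41 in EBRTcH3. Without LIF it was 4.69 in MBD3b and 4.94 in MBD3c, against 4.29 in MBD3a and 4.07 in EBRTcH3. The smallest pairwise difference was 0.40 and the mean difference 0.68 ± 0.08 (SE, 1.60-fold), with a limma adjusted p of 0.174. Its level in all these arrays was low.

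Kcnrg, a regulator of potassium channels, had 5.02 in MBD3b and 5.21 in MBD3c with LIF, against 4.17 in MBD3a and 4.25 in EBRTcH3, with a difference over both conditions of 0.74 ± 0.10. Chd9, a chromatin remodeller of the CHD family, had the highest signal of the group. Without LIF it gave 9.89 in MBD3b and 9.83 in MBD3c, against 9.55 in MBD3a and 8.89 in EBRTcH3, and with LIF 10.39 and 10.50, against 10.04 and 9.68. The gene lies on chromosome 8, and its MBD3a signal was above that of EBRTcH3 in both conditions. Grem1, a secreted BMP antagonist, differed more with LIF (0.97 ± 0.18) than without (0.48 ± 0.18), although the change between conditions did not pass (adjusted p = 0.704). Knl1 of the kinetochore (0.36 ± 0.07), the transcription factor Myb (0.32 ± 0.07) and the matrix proteoglycan Vcan (0.48 ± 0.10) were smaller and even across conditions. Dab1, an adaptor of reelin signalling, showed 0.39 ± 0.07. The other named genes of this direction were Nlrp14, Chic1, Rims2, Doc2a, Qser1, Ccrl2 and the noncoding Mm2pr, at 0.29 to 0.61.

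Among the shared genes that were lower, Ap1s1 had the widest gap. It encodes a subunit of the AP-1 clathrin adaptor, which sorts cargo at the Golgi. Its signal with LIF was 7.81 in MBD3b and 7.75 in MBD3c, against 8.27 in MBD3a and 8.39 in EBRTcH3. Without LIF it was 8.79 in MBD3b and 8.80 in MBD3c, against 9.29 in MBD3a and 9.48 in EBRTcH3. The 2 isoform arrays were nearly equal in each condition, and the difference over both was -0.57 ± 0.07 (limma adjusted p = 0.174).

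Tbx3 is a T-box factor downstream of LIF signalling that supports the naive state. With LIF it gave 9.86 in MBD3b and 9.61 in MBD3c, against 10.34 in MBD3a and 10.30 in EBRTcH3. Without LIF it gave 7.96 in MBD3b and 7.70 in MBD3c, against 8.30 in MBD3a and 8.87 in EBRTcH3. The difference over both conditions was -0.67 ± 0.13 (adjusted p = 0.189). Of the 15 named genes of this direction, Tbx3 is the one on the pluripotency list.

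Lhx1, a homeobox factor of the early mesoderm and organiser, gave 5.20 in MBD3b and 5.41 in MBD3c with LIF, against 5.93 in both MBD3a and EBRTcH3 (difference over both conditions -0.62 ± 0.09). The small GTPase Rras had 7.50 in both isoform lines with LIF, against 8.07 in MBD3a and 8.20 in EBRTcH3, and differed by -0.57 ± 0.07. Gjb5, a connexin of trophoblast and skin, had 7.76 in MBD3b and 7.49 in MBD3c without LIF, against 8.37 in MBD3a and 8.59 in EBRTcH3. Emp3, a membrane protein, was uneven between the isoform lines: it had 6.39 in MBD3b and 5.67 in MBD3c with LIF, against 7.07 in MBD3a and 6.86 in EBRTcH3. Tnfsf9, Gstm7, Cuta, Mpp1, Tmem184a, Pcdh1, the glycogen phosphorylase Pygl, the protease Capn1 and the cytochrome oxidase subunit Cox8a made up the rest, with differences of -0.41 to -0.62. None passed the limma test over both conditions.

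Taking the cultures with LIF alone, 43 genes passed (0.19% of those tested), of which 34 rose (0.15%) and 9 fell (0.0397%) in the isoform lines. Most of the genes that rose were noncoding. There were 10 microRNA genes, 4 snoRNA genes, 9 pseudogenes, 6 lncRNAs, 2 antisense RNAs, 2 of other or no class and 1 protein-coding gene, an olfactory receptor gene that is counted but not named. The calls were thin: leaving out any 1 of the 4 arrays with LIF left 0 of them, leaving out either isoform array without LIF also left 0, and leaving out the MBD3a or the EBRTcH3 array without LIF left 23. Restricting the fit to protein-coding genes called 0, and fitting the 4 arrays with LIF alone called 0 as well.

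Tsix, the antisense partner of Xist on the X chromosome, rose most. Its signal with LIF was 9.49 in MBD3b and 9.36 in MBD3c, against 7.84 in MBD3a and 7.44 in EBRTcH3. The difference was 1.78 ± 0.19 (SE, 3.45-fold, limma adjusted p = 0.029). Without LIF the lines overlapped, with 6.63 in MBD3b and 6.17 in MBD3c against 6.61 in MBD3a and 6.39 in EBRTcH3.

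Kcnq1ot1, the imprinted antisense transcript of the Kcnq1 domain, followed the same order. It gave 7.96 in MBD3b and 7.50 in MBD3c with LIF, against 5.94 in MBD3a and 6.10 in EBRTcH3 (1.71 ± 0.16, adjusted p = 0.029). Its differences without LIF were near zero (0.04 ± 0.16). Gnasas1, antisense to the imprinted Gnas gene, rose by 0.92 ± 0.12 and the lncRNA Platr4 by 0.84 ± 0.11. Of the partners on the other strand, chosen after their values were seen, Kcnq1 had 4.32 in MBD3b and 4.75 in MBD3c, against 4.79 in MBD3a and 4.96 in EBRTcH3. The isoform lines were lower, but MBD3c and MBD3a were nearly equal and the level was low. Xist had 5.89 in MBD3b and 6.17 in MBD3c with LIF, against 5.08 in MBD3a and 5.12 in EBRTcH3, higher by 0.93 ± 0.16 without passing (limma adjusted p = 0.0813). Whether the array separates the strands at these loci was not tested.

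The 10 microRNA genes that passed were chosen for naming after their values were seen. Mature sequences of 8 of them are in RefSeq (GRCm38.p6) and are shown so that their seeds (bases 2 to 8, in capitals) can be compared. All 12 mature forms have different seeds, and all lie on the plus strand except miR-467f, on the minus strand.
mmu-miR-186-5p, chr3:157544285-157544306: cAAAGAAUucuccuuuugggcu
mmu-miR-186-3p, chr3:157544324-157544345: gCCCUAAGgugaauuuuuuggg
mmu-miR-301a-5p, chr11:87113017-87113038: gCUCUGACuuuauugcacuacu
mmu-miR-301a-3p, chr11:87113054-87113076: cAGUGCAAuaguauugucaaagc
mmu-miR-1192, chr19:23149450-23149471: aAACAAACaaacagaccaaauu
mmu-miR-3094-5p, chr4:40993696-40993716: uGUUGGGGacauuuuuaaagc
mmu-miR-3094-3p, chr4:40993738-40993758: cCUUUAAAuuguguccucaag
mmu-miR-3108-5p, chr8:108936870-108936892: gUCUCUAAagcuagacguuccgg
mmu-miR-3108-3p, chr8:108936911-108936931: cGUCUAGGucuagagucucaa
mmu-miR-1931, chr10:93162879-93162900: aUGCAAGGgcuggugcgauggc
mmu-miR-466j, chr10:60960802-60960824: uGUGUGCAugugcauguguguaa
mmu-miR-467f, chr11:69635419-69635439: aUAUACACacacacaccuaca

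Mir3094 gave 5.18 in MBD3b and 4.79 in MBD3c with LIF, against 3.56 in MBD3a and 3.46 in EBRTcH3 (1.48 ± 0.20, limma adjusted p = 0.0466). Mir186 gave 5.69 in MBD3b and 5.74 in MBD3c, against 4.85 in both MBD3a and EBRTcH3 (0.86 ± 0.09, adjusted p = 0.029). In both cases the 2 isoform lines lay well above the others. Without LIF these differences were -0.32 for Mir3094 and -0.09 for Mir186, and neither passed. Outside the isoform arrays with LIF, Mir3094 lay at 3.01 to 3.73, below the array medians of 4.72 to 4.85. It may thus have passed the filter on dim probe sets only through the 2 arrays in which it was high. Mir3108 (1.06), Mir301 (1.00), Mir1192 (0.97), Mir1931 (0.94), Mir466f-4 (0.80), Mir669m-2 (0.78), Mir467f (0.72) and Mir466j (0.69) rose as well. The last 4 belong to repetitive families whose near-identical hairpins the array may not tell apart.

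A hairpin's probes can also detect the intron that holds it, so each microRNA was set beside its host gene. A host was counted only where the strand of both genes was on record. By this rule 5 of the 10 genes lie within a tested gene on the same strand. Mir186 lies in Zranb2, which differed by -0.02 with LIF, and Mir3094 in Nfx1, which differed by -0.07. Mir301 lies in Ska2 (0.14), Mir1192 in Klf9 (-0.19) and Mir3108 in Zfhx3 (0.43), and no host passed. Over the 98 microRNAs with a tested host the median difference with LIF was 0.17, against -0.07 for the hosts, and 75 of 98 lay above their host. The 260 for which no host was found this way had a median of 0.21. Some of them may lie in a gene whose strand was not on record. The signal does not tell a hairpin from unspliced host RNA.

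The shift extended over the RNA class. Of 358 tested microRNA genes, 53.4% had both isoform lines above both comparison lines with LIF, against 12.6% of all tested genes, and 9.78% had both below, against 33.4%. The same count was 36.8% higher for snoRNA genes and 9.95% for protein-coding genes. The order of the classes held under both other scalings. There 58.9% and 66.2% of microRNA genes were higher, against 20.4% and 29.2% of all tested genes. Without LIF it did not hold: 7.54% of microRNA genes were higher and 31.8% lower, against 13.7% and 21.5% of all tested genes. Some members of the Mir466b, Mir467a and Mir669a families had identical values on all 8 arrays. They are not separate measurements, and they count as higher with LIF and as lower without. How far they move these shares was not tested. The median microRNA signal with LIF was 5.75 in MBD3b and 5.74 in MBD3c, against 5.55 in MBD3a and 5.50 in EBRTcH3. That of protein-coding genes ran the other way, at 7.02 in MBD3b and 7.00 in MBD3c against 7.11 in MBD3a and 7.13 in EBRTcH3. With 1 array per line and condition, a property of a line and a property of its array cannot be told apart.

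**Figure D2:**
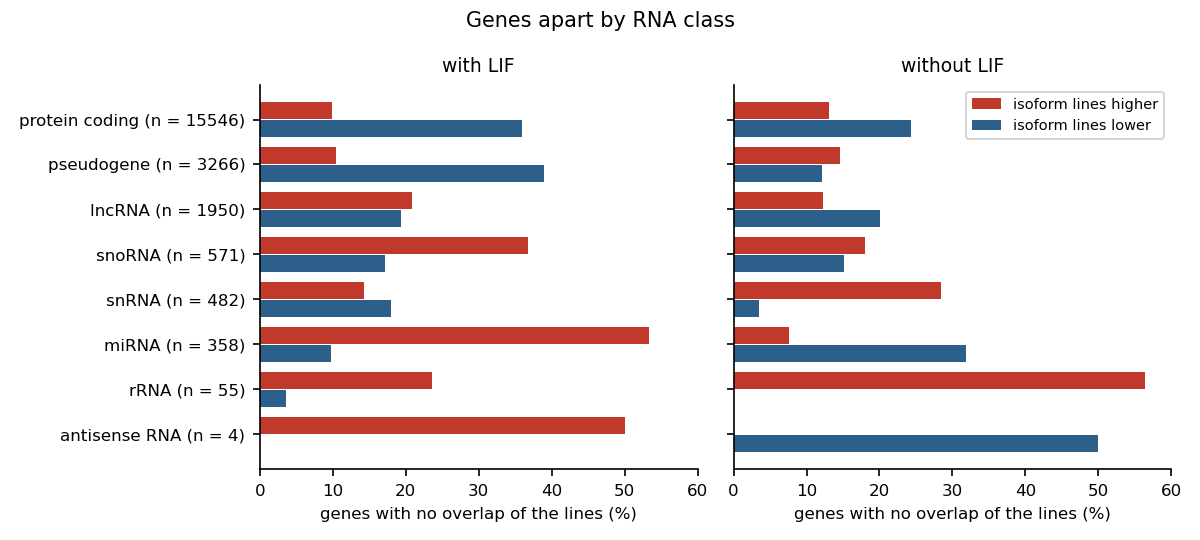
Percentage of tested genes of each RNA class (rows, number of genes in brackets) in which both isoform lines lay above (red) or below (blue) both MBD3a and EBRTcH3, with LIF and without. With LIF, 53.4% of microRNA genes and 9.95% of protein-coding genes had the isoform lines higher.

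The 4 other lines are given as values only, since the genes were chosen for high or low isoform arrays. All 34 genes that rose had their MBD-deleted, coiled-coil-deleted and doubly deleted arrays below both isoform arrays with LIF, and 33 of 34 had the empty-vector array below as well. In Tsix these 4 arrays spanned 7.27 to 8.57, and in Kcnq1ot1 5.48 to 6.61. Of the 9 genes that fell, the empty-vector array lay above both isoform arrays in 4, the coiled-coil-deleted array in 8 and the others in all 9. The classes as a whole ran differently: the snoRNA median with LIF lay 0.31 above EBRTcH3 in the MBD-deleted line, against 0.13 in MBD3b and 0.12 in MBD3c. It lay 0.18 above in the doubly deleted, 0.12 in the empty-vector and 0.03 in the coiled-coil-deleted line. The microRNA median lay 0.13 above EBRTcH3 in the MBD-deleted line, against 0.19 in MBD3b, 0.24 in MBD3c and 0.05 in MBD3a. It lay 0.09 above in the doubly deleted, 0.08 in the coiled-coil-deleted and 0.04 in the empty-vector line.

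The 9 genes that fell with LIF included 6 protein-coding genes. Wfdc16, a WAP-domain protease inhibitor, had 3.96 in both MBD3b and MBD3c, against 5.44 in MBD3a and 5.54 in EBRTcH3 (-1.53 ± 0.20, limma adjusted p = 0.0466). Its isoform values lay below the array medians of 4.72 to 4.85, so its level was low. Gstm5, a glutathione transferase, had 5.34 in MBD3b and 5.08 in MBD3c, against 6.33 in MBD3a and 6.18 in EBRTcH3 (-1.04 ± 0.12, adjusted p = 0.0445). Both isoform lines lay below both comparison lines in each.

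Hoxa4 and Mlf1 each fell by 0.97, and the nicotinic receptor subunit Chrna9 by 0.94. Mrpl40, a mitochondrial ribosomal protein that fell outside the naming rule, gave 7.47 in MBD3b and 7.67 in MBD3c, against 8.32 in MBD3a and 8.36 in EBRTcH3 (-0.77 ± 0.10). Of these 6, Gstm5 and Mrpl40 kept both isoform lines below both comparison lines without LIF, Mrpl40 by as little as 0.02, whereas Mlf1, Wfdc16 and Hoxa4 had them above. The remaining 3 were predicted genes or clones.

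**Figure D3:**
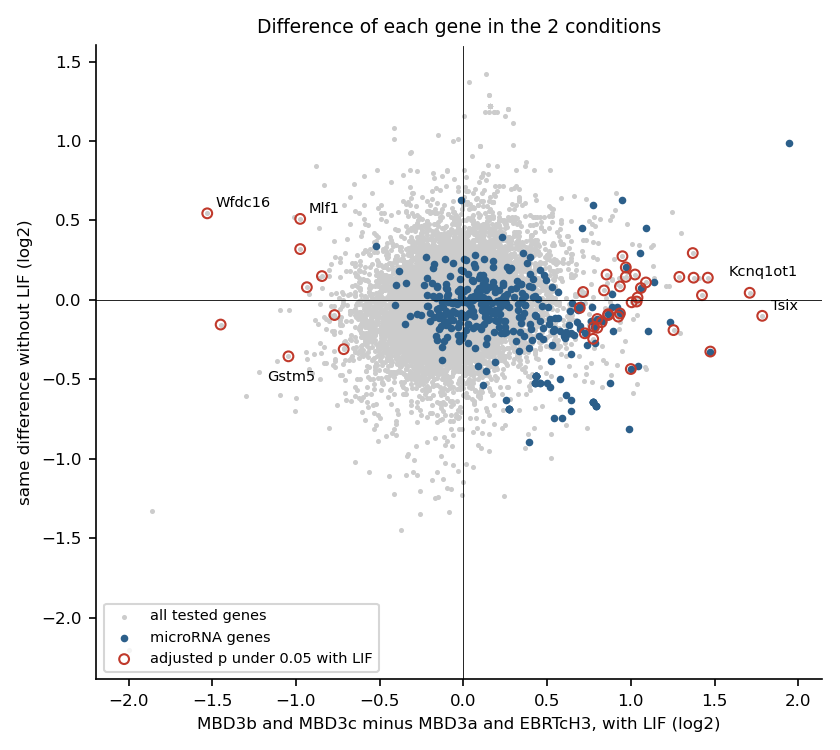
Difference of each tested gene between the isoform lines (MBD3b, MBD3c) and the comparison lines (MBD3a, EBRTcH3) with LIF (horizontal axis) and without LIF (vertical axis), in log2 units. Grey points are all 22684 tested genes, blue points microRNA genes, and red rings the 43 genes that passed with LIF, which lie between -0.43 and 0.55 on the vertical axis.

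Whether the isoform difference itself depended on LIF was tested as an interaction. It passed in 0 genes (0.0%), with a smallest adjusted p of 0.0661, although 904 genes were higher and 823 lower at an unadjusted p under 0.05. That p belonged to predicted and microRNA genes, mostly of the repetitive Mir467a family, which were higher in the isoform lines with LIF and lower without. Given as the difference without LIF minus that with LIF, the value was 1.48 for Mlf1 (limma adjusted p = 0.0669) and 1.72 for Krtdap, a keratinocyte protein (adjusted p = 0.0669). Tsix (-1.88), Kcnq1ot1 (-1.67), Gdap10 (-1.25), the nuclear paraspeckle lncRNA Neat1 (-1.57) and Zfp202 (-0.87) were the named genes of the other direction. Neat1 had 10.38 in MBD3b and 10.22 in MBD3c with LIF, against 9.26 in MBD3a and 9.27 in EBRTcH3, and 8.35 and 7.85 without LIF, against 8.72 and 8.54. A stricter filter on dim probe sets called 11 genes.

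Without LIF alone, 0 genes (0.0%) passed, with a smallest adjusted p of 0.108 and 603 genes higher and 1157 lower at an unadjusted p under 0.05. Without the MBD3a line 179 genes passed, and without its array in this condition 164. Both isoform lines lay above both comparison lines in 3105 genes (13.7%) and below them in 4867 (21.5%). With LIF the same counts were 2856 (12.6%) and 7568 (33.4%).

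Trophectoderm and trophoblast genes stood out in the cultures without LIF. Of 20 tested members of that list, 17 had both isoform lines below both comparison lines (85.0%, against 21.5% of all tested genes), and none had both above. The median difference was -0.62, against -0.02 over all tested genes. After quantile normalisation and after centring on protein-coding genes the counts were 14 and 16 of 20. No member passed the limma test, and with LIF 10 of 20 were lower (8 and 7 under the other scalings) and the median was -0.21.

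Dlx3, a homeobox factor of the placenta chosen after its values were seen, had the smallest adjusted p of the list. Its signal without LIF was 7.33 in MBD3b and 7.31 in MBD3c, against 8.24 in both MBD3a and EBRTcH3 (-0.92 ± 0.10, limma adjusted p = 0.189). Hand1, a basic helix-loop-helix factor of trophoblast giant cells, gave 9.19 in MBD3b and 8.86 in MBD3c, against 9.92 in both MBD3a and EBRTcH3 (-0.90 ± 0.13, adjusted p = 0.347). In both genes the 2 comparison lines were equal and the isoform lines lay below them. Rhox6, a homeobox gene of placenta and germ line, gave 6.80 in MBD3b and 6.33 in MBD3c, against 7.62 in MBD3a and 7.91 in EBRTcH3 (-1.20 ± 0.17, adjusted p = 0.347).

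Cdx2, the factor that specifies trophectoderm, was less clear cut. It gave 7.78 in MBD3b and 7.91 in MBD3c, against 8.23 in MBD3a and 9.47 in EBRTcH3 (-1.005 ± 0.33, limma adjusted p = 0.591). The EBRTcH3 array stood well above all 3 vector lines, which lay close together. Gata2 gave 6.94 in MBD3b and 6.42 in MBD3c, against 7.43 in MBD3a and 7.40 in EBRTcH3. The keratin Krt7 gave 9.09 in MBD3b and 8.86 in MBD3c, against 9.81 in MBD3a and 9.68 in EBRTcH3. Both genes separated the isoform lines from both comparison lines, as did the 4 placental genes Esx1, Plac1, Rhox9 and Peg10.

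The epithelial keratins at the top of the range differed little: Krt8 without LIF was 11.65 and 11.78 in MBD3b and MBD3c against 11.83 and 11.87 in MBD3a and EBRTcH3, and Krt18 was 12.04 and 12.14 against 12.36 and 12.33. Tfap2a, Krt19 and Plet1 were the 3 tested members in which the lines overlapped. The 8 members shared across both conditions (8 of 20, against 9.31% of all tested genes) were Cdx2, Gata2, Krt7, Krt8, Krt18, Hand1, Ascl2 and Rhox6. Under each of the other scalings 5 were shared, against 5.66% and 3.05% of all tested genes. Krt7, Krt8 and Krt18 lie on chromosome 15, whose median was lower in every other line than in EBRTcH3.

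**Figure D4:**
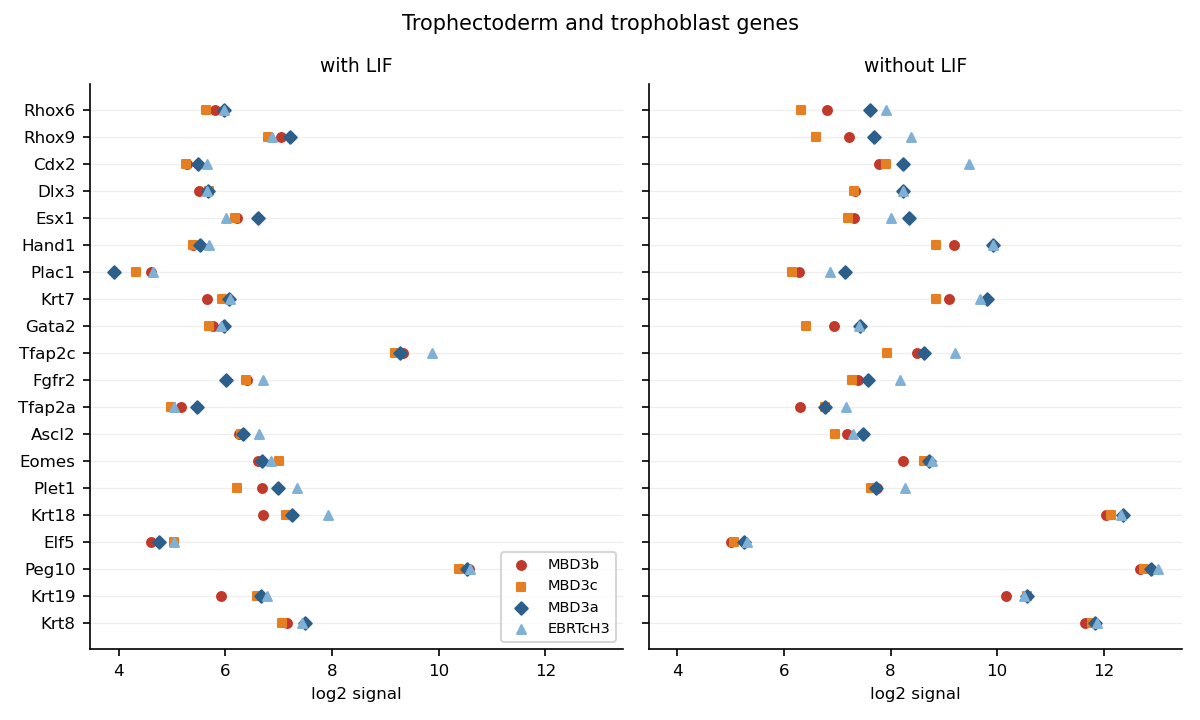
Log2 signal of the 20 tested trophectoderm and trophoblast genes in MBD3b, MBD3c, MBD3a and EBRTcH3 (1 array per line and condition), with LIF on the left and without LIF on the right, ordered by the difference without LIF. Without LIF the isoform lines lie left of both comparison lines in 17 of 20 genes.

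The other lines were lower still for some of these genes. Hand1 without LIF was 6.84 in the MBD-deleted line and 6.94 to 7.39 in the 3 lines without a coiled coil or with an empty vector. Dlx3 was 6.25 in the MBD-deleted line and 5.70 to 5.96 in those 3. MBD3b and MBD3c thus lay between the MBD-deleted line and MBD3a for Hand1 and Dlx3. Rhox6 was 6.15 in the MBD-deleted line, below both isoform lines, and 7.18 to 7.31 in the other 3.

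Since the isoforms differ in a methyl-CpG-binding domain, the CG dinucleotides of promoters are shown for 2 of these genes. The windows run from 250 bases before to 50 after the annotated start (RefSeq, GRCm38.p6, minus strand), with each CG in capitals. The motif searched was CG, which reads the same on both strands, and 98.5% of the 12550 windows of tested protein-coding genes hold at least 1.
Cdx2, chr5:147307200-147307499: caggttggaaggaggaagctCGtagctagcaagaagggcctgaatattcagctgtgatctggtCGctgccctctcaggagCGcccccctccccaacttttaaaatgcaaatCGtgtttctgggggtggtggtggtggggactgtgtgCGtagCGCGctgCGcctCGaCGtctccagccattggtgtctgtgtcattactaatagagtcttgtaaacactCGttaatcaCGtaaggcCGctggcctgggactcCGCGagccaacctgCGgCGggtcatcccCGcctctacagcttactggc
Ascl2, chr7:142969215-142969514: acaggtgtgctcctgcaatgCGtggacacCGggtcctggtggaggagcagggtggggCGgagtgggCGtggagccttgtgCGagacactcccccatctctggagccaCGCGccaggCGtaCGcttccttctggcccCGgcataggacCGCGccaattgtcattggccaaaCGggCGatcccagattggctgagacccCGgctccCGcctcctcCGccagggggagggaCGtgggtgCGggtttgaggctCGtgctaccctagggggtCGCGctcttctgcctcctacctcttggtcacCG

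The Cdx2 window holds 18 CG and the Ascl2 window 23, against a median of 18 over all these windows. CpG content over expectation had a median of 0.81 in the 246 shared higher protein-coding genes with a window and 0.74 in the 1496 shared lower ones, against 0.70 over all. The 11 trophoblast genes that were lower without LIF and have a window had a median of 0.61. Methylation was not measured in these samples.

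With LIF, pluripotency genes were among the lists that lay below the comparison lines. Of 28 tested members of the naive and general pluripotency list, 19 had both isoform lines below both comparison lines (67.9%, against 33.4% of all tested genes) and none had both above. The list median was -0.17, against -0.07 over all tested genes. After quantile normalisation 16 of 28 were lower and 2 higher, against 22.2% and 20.4% of all tested genes. After centring 12 were lower and 4 higher, against 13.6% and 29.2%. None passed the limma test. Without LIF 2 of 28 were lower and 5 higher (against 21.5% and 13.7% of all tested genes), and the median was 0.10. Primed and formative epiblast genes had a lower median with LIF, at -0.24. Of these 7 of 16 were lower and 1 higher (43.8% and 6.25%, against 33.4% and 12.6% of all tested genes).

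Klf4 gave 10.26 in MBD3b and 10.24 in MBD3c with LIF, against 10.48 in MBD3a and 10.64 in EBRTcH3 (-0.31 ± 0.12, adjusted p = 0.347). Utf1, a chromatin factor of undifferentiated cells, gave 10.19 in MBD3b and 10.12 in MBD3c, against 10.40 in MBD3a and 10.73 in EBRTcH3. Without LIF the Utf1 values overlapped between the sides. In the LIF and STAT3 target list 10 of 14 were lower with LIF and 2 higher (33.4% and 12.6% of all tested genes), and the median was -0.22. Under the other scalings 7 and 4 of 14 were lower, against 22.2% and 13.6% of all tested genes, and 2 were higher in each. Its 5 shared members (35.7%, against 9.31% of all tested genes, and 3 and 2 under the other scalings) were Tbx3, Ccnd3, Socs3, Klf4 and Il6st. Socs3, the feedback inhibitor of LIF signalling, gave 8.15 in MBD3b and 8.37 in MBD3c with LIF, against 8.49 in MBD3a and 8.54 in EBRTcH3, and 7.05 and 7.08 without LIF, against 7.34 and 7.28.

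**Figure D5:**
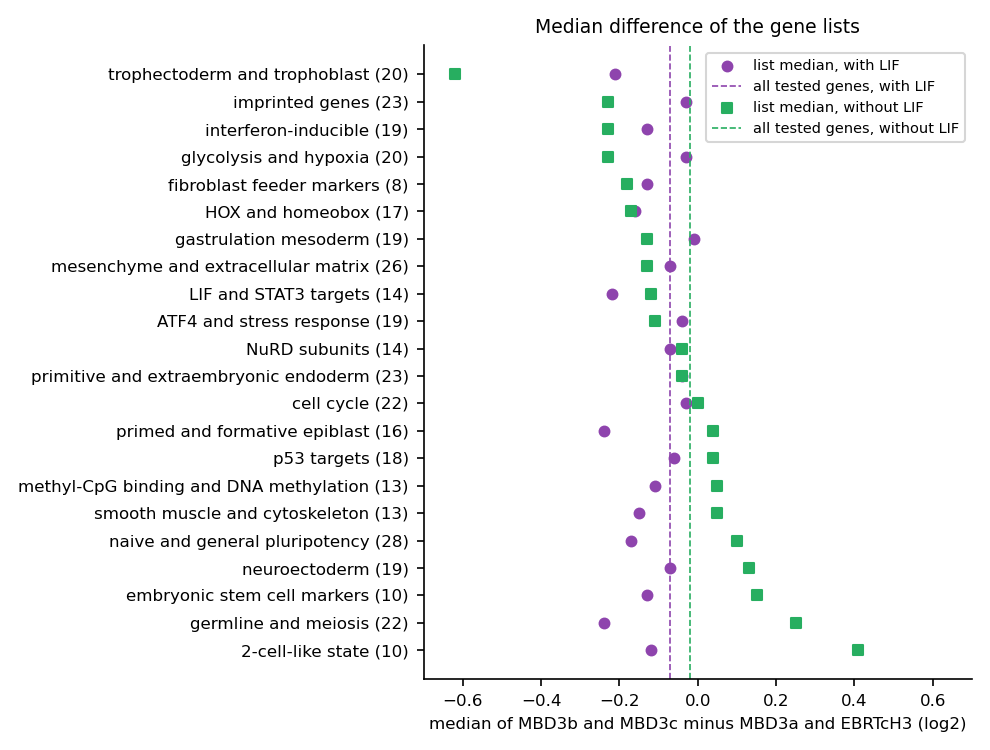
Median difference between the isoform lines (MBD3b, MBD3c) and the comparison lines (MBD3a, EBRTcH3) for the tested members of 22 gene lists (number of genes in brackets), with LIF (purple) and without LIF (green), in log2 units. Dashed lines mark the medians of all tested genes, and the trophectoderm list without LIF lies farthest from its line at -0.62.

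Of 14 tested subunits of NuRD, 4 were lower and 2 higher with LIF (28.6% and 14.3%, against 33.4% and 12.6% of all tested genes). Without LIF 5 were lower and 2 higher (35.7% and 14.3%, against 21.5% and 13.7%), and none passed in either condition. Their median with LIF changed sign with the scale, at -0.07, 0.00 and 0.04. Mbd2, the paralogue that replaces MBD3 in NuRD, was shared. It gave 9.34 in MBD3b and 9.20 in MBD3c with LIF, against 9.52 in MBD3a and 9.62 in EBRTcH3, and 9.40 and 9.66 without LIF, against 9.73 and 9.90. Mta3 was the other shared member, with a difference of -0.49 ± 0.15 with LIF and -0.17 ± 0.15 without, by as little as 0.01 in 1 pair. Among 13 tested genes of methyl-CpG binding and DNA methylation, 1 was shared, Mbd6 (-0.10 ± 0.06), and none was under the other scalings.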

How the data were processed

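Affymetrix whole-transcript arrays measured total RNA of 16 cultures, of which 8 were compared. The deposited log2 values came from the authors' RMA step with affy, per the submitters' processing notes, and software versions were not given in the sources used here. Of 65770 probe sets, 27 had no value, 30439 had 1 gene symbol, 2146 several and 33158 none. Entrez identifiers matched 22653 and updated 827 symbols. The brightest probe set stood for each of 30102 genes. A gene was tested if at least 2 of the 8 arrays put it over their own 40th percentile, which left 22684. The 2 arrays of 1 side in 1 condition could meet this alone, and genes that entered so were not counted. Array medians were 4.72 to 4.85, and the number of arrays limits the precision.

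limma 3.58.1 in R 4.3.3 fitted lmFit, duplicateCorrelation by line (consensus -0.0798 over both conditions, 0.0385 within them) and eBayes, with Benjamini-Hochberg adjustment over all tested genes, and was tested on simulated data. Differences are isoform lines minus comparison lines, ± SE. The members and gene lists were chosen with earlier results of these data known. The naming rule took Mbd3, 15 shared genes per direction with the widest gap, up to 5 per direction that passed within a condition, 5 per direction of the interaction and up to 3 shared members per list, without predicted genes, small RNAs and receptor genes; not all are mentioned. Genes outside it were chosen after their values were seen: the microRNAs and their hosts, Mrpl40, Xist, Kcnq1, Il6st, the Y-linked genes and the trophoblast members other than Cdx2, Hand1 and Rhox6. Scalings, filters, weights and leaving out lines or arrays were tried as alternatives.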

Additional observations from a re-analysis of the deposited data

How the results depend on the processing

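Over both conditions 0 genes passed under every alternative that kept all arrays; with 1 line or array left out the count was 0 to 1344, the highest without MBD3a. With LIF the 43 calls became 74 with a mean-variance trend, 103 with array weights, 9 with no filter on dim probe sets, 65 with a stricter one, 89 after quantile normalisation again, 98 after centring on protein-coding genes (an alternative chosen after seeing the data), 0 among protein-coding genes alone (also chosen afterwards) and 0 from the 4 arrays with LIF alone. Leaving out a line or array gave 0 to 24. Of the 43 genes, all 43 were kept without the random block, with array weights and after quantile normalisation, and 41 with the trend or the centring. The cause of these changes was not tested, apart from the fewer arrays or genes that some settings hold. Without LIF the count was 0 under all full-array alternatives and 0 to 179 with a line or array left out. The interaction gave 11 with the stricter filter, 0 under the other full-array alternatives and 0 to 23 with a line or array left out. When a line was left out no correlation by line could be estimated for the fits within conditions, and these then ran without the block.

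Shared genes numbered 1051 higher and 1283 lower after quantile normalisation, 1846 and 691 after centring on protein-coding genes, and 316 higher among protein-coding genes alone. Leaving out a line or array gave 860 to 2510 higher and 2688 to 5228 lower. Fewer pairs then had to agree, so these counts could not fall, and the same holds for genes apart with LIF. Genes apart with LIF numbered 4617 higher and 5044 lower after quantile normalisation, 6634 and 3075 after centring, 1547 higher among protein-coding genes alone and 1894 higher with the stricter filter, and 2856 to 6087 higher and 7568 to 11408 lower with a line or array left out. Of 3043 values of single genes under an alternative, 2435 kept direction and side of the threshold, 562 lost a call, 41 gained one and 5 reversed. The Mbd3 difference of -0.09 turned to 0.29 without the MBD3c line, 0.0478 without its array with LIF and 0.116 without its array without LIF, within a range of -0.47 to 0.29 over all lines and arrays left out. That of Xist without LIF turned to 0.005 and 0.0235 without the MBD3c line and without its array in that condition, within a range of -0.39 to 0.0235. No paired analysis was possible because isoform and comparison lines share no replicate number that pairs them within a condition. The arrays of a line with and without LIF do pair, and the random block was set for this. Its consensus correlations of -0.0798 and 0.0385 made almost no allowance for the shared line. Over both conditions 2875 genes had an unadjusted limma p under 0.05 without the block, against 740 higher and 2498 lower with it. A fit on line means, with 2 lines against 2, called 0 genes.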

Other observations

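Several further gene groups lay apart without LIF, where no gene passed the limma test. Whether a list differed between the conditions was not tested. Of 23 tested imprinted genes, 11 had both isoform lines below both comparison lines without LIF (47.8%, against 21.5% of all tested genes). Under the other scalings 7 and 9 of 23 did. With LIF 5 were lower and 3 higher (21.7% and 13.0%, against 33.4% and 12.6% of all tested genes). Igf2, the fetal growth factor, gave 11.94 in MBD3b and 11.59 in MBD3c, against 12.50 in MBD3a and 12.43 in EBRTcH3, and Phlda2, a brake on placental growth, gave 11.13 and 10.78 against 11.46 and 11.56. With LIF the Igf2 values overlapped, at 6.41 and 6.79 in MBD3b and MBD3c against 6.29 and 6.63 in MBD3a and EBRTcH3. Interferon-inducible genes showed 12 of 19 lower without LIF (63.2%, and 12 and 7 under the other scalings) and 8 with LIF (42.1%), with medians of -0.23 and -0.13. Genes of glycolysis and hypoxia showed 11 of 20 lower without LIF (8 and 6) and 2 with LIF. Ndrg1, a hypoxia-responsive gene, gave 9.34 in MBD3b and 8.91 in MBD3c without LIF, against 10.14 in MBD3a and 10.19 in EBRTcH3. These genes were chosen after their values were seen, apart from Phlda2.

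Germline and meiosis genes lay the other way without LIF, with 8 of 22 higher in both isoform lines and none lower (36.4%, against 13.7% of all tested genes; 10 and 11 of 22 under the other scalings). With LIF 6 of 22 were lower (27.3%, against 33.4% of all tested genes) and none higher (against 12.6%). The median was -0.24 with LIF and 0.25 without. Sycp3, of the synaptonemal complex, gave 7.78 in MBD3b and 7.70 in MBD3c, against 7.55 in MBD3a and 6.82 in EBRTcH3. Part of that gap lay between EBRTcH3 and all 3 vector lines. Of all tested genes 13.7% were higher without LIF (17.3% and 21.7% under the other scalings) and 12.6% with LIF. Of 19 neuroectoderm genes 8 were higher without LIF (42.1%, and 8 and 9 under the other scalings), and 1 with LIF (5.26%). Among the 8 was Pax6, a neural and eye homeobox factor, at 6.01 in MBD3b and 5.76 in MBD3c, against 5.59 in MBD3a and 5.19 in EBRTcH3. Of 55 ribosomal RNA genes 56.4% had both isoform lines above both comparison lines without LIF, and of 482 snRNA genes 28.4%, against 13.7% of all tested genes, and no member passed.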
